A study of Mus musculus with 5 samples.

Results

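Cathepsins are proteases of the lysosome, and cystatin C is a secreted protein that blocks many of them. The 10 genes described here are Ctsa, Ctsb, Ctsc, Ctsd, Ctsh, Ctsk, Ctsl, Ctss and Ctsz, which encode cathepsins, and Cst3, which encodes cystatin C. They were taken by symbol from the 24419 rows of the deposited gene table, and each had 1 row. The rule uses symbols and no measured value, but the list was drawn up with earlier results of these data known. The table covers 5 samples of bone marrow-derived macrophages (BMMs) from mice labelled C57BL/6 on the samples and C57BL6/J in the series design, grown for 5 days with the growth factor M-CSF at 50 ng/ml and activated with the bacterial product LPS at 100 ng/ml. For 18 h, 2 samples received PBS, the control, and 3 received 100 ng/ml recombinant Sema3G, a secreted semaphorin that binds neuropilin-2. All samples thus carry M-CSF and LPS, and no sample without LPS was analysed here. The protein was made in a human embryonic kidney cell line as an Fc-tagged form and purified from culture supernatant, and PBS carries neither the tag nor supernatant. The labels name 5 samples and do not say whether they came from separate mice or cultures, so the tests below measure the spread between these samples, which may be technical.

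Most cathepsins are made as inactive precursors, receive a mannose 6-phosphate tag in the Golgi, are carried to the lysosome by receptors for that tag, and are activated there by acid and by other proteases. Cathepsins B, C, H, K, L, S and Z are cysteine proteases of the papain family, cathepsin D is an aspartic protease and cathepsin A is a serine carboxypeptidase. In macrophages they digest phagocytosed material, trim antigens for MHC class II and, once secreted, cut the extracellular matrix. Cystatin C binds the active site of the papain-like enzymes, but not of cathepsins A and D.

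Levels are given in CPM, the count of a gene scaled to a common total per library. Each library reads RNA near its 3′ end and marks every molecule with a unique molecular identifier (UMI), so that 1 RNA molecule gives about 1 count whatever its length, and CPM were not divided by gene length. The counts behind the CPM values could be recovered (100% of values within 0.01 of a whole count). Library totals lay between 1798469 and 2215855 UMIs, and 3 UMIs, taken as the limit of detection, corresponded to between 1.35 and 1.67 CPM. The UMIs on listed genes made up 75.6% and 77.6% of the totals with PBS and between 65.9% and 71.3% with Sema3G. The ribosomal RNA precursor Rn45s took 1.01% and 3.19% with PBS and between 6.31% and 7.88% with Sema3G. Both enter every CPM value, and their part in the results was not tested. Values from other scalings are therefore given beside the main result.

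The libraries carried macrophage markers. Of 8 macrophage markers all had UMIs, and their summed level was between 9761 and 12570 CPM with PBS and between 8860 and 9518 CPM with Sema3G. Csf1r and Lyz2 gave most of these sums. Mertk had 2 and 0 UMIs with PBS and 5, 4 and 5 UMIs with Sema3G. Markers of lymphoid cells, dendritic cells, and mast cells and basophils summed, list by list, to no more than 2.78 CPM in any library, with Cd3e, Ms4a1, Flt3, Xcr1, Siglech and Mcpt4 at 0 in all 5. The 9 neutrophil markers in the table summed to between 118 and 169 CPM with PBS and between 103 and 133 CPM with Sema3G, with 6 of them detected and Elane, Ngp and Retnlg at 0. S100a8 alone gave between 102 and 165 CPM of these sums, and no other neutrophil marker passed 2.14 CPM in any library. The 7 stromal markers summed to 16.6 and 50.0 CPM with PBS and between 14.9 and 32.7 CPM with Sema3G, with 6 detected and Lum at 0. The part of these cells in the results was not tested, and in bulk RNA fewer cells of a type and less RNA per cell cannot be told apart.

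The first sequences shown are promoters, because Ctss and Ctsk stand side by side in the genome and differed most in level. In the GENCODE M21 annotation of GRCm38, the same assembly as the mm10 build the authors mapped to, Ctsk (ENSMUSG00000028111.4) lies on the plus strand of chromosome 3 from 95499256 to 95509362. Ctss (ENSMUSG00000038642.10) follows on the same strand from 95526786 to 95556403, with 17423 bp and no other protein-coding gene between them. The promoters of Ctsd and Ctsa, for Ctsa the second of its windows, are added because they hold the E-box. Its letters are CACGTG, and the lysosomal regulators of the MiT/TFE family bind it. That of Cst3 is added because it encodes the inhibitor. Each RefSeq window (GRCm38.p6) runs from 250 bases before to 50 bases after the annotated start, and is printed 5′ to 3′ along the gene with 4 fixed motifs in capitals. The E-box reads the same on both strands. The core of the site of the myeloid factor PU.1 was searched as GAGGAA, the GC box as GGGCGG and the TATA box as TATAAA, each on both strands, and letters in capitals may belong to overlapping matches.
Ctss, chr3:95526536-95526835, plus strand: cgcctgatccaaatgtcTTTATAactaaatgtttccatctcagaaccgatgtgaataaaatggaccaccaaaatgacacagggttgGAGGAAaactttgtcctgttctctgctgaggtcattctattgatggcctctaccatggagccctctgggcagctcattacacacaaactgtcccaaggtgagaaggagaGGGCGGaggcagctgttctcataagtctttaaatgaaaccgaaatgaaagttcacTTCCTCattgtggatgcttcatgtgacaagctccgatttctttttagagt
Ctsk, chr3:95498960-95499259, plus strand: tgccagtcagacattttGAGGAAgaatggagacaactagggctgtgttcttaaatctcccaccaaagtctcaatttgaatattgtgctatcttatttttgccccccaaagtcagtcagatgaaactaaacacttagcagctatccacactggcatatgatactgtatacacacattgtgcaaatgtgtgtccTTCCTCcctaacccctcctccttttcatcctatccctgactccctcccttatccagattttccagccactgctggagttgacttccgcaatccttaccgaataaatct
Ctsd, chr7:142387778-142388077, minus strand: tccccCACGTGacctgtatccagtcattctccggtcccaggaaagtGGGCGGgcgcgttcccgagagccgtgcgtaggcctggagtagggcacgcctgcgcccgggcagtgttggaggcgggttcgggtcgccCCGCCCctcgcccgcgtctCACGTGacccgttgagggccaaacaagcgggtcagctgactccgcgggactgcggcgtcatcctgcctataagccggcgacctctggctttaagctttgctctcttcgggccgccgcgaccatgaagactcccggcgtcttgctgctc
Ctsa, chr2:164833523-164833822, plus strand: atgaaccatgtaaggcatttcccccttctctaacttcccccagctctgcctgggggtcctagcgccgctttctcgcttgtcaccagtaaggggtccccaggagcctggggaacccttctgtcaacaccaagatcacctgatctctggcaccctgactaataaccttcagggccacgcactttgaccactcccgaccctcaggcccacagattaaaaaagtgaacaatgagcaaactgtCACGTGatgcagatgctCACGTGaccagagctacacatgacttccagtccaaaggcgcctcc
Cst3, chr2:148875463-148875762, minus strand: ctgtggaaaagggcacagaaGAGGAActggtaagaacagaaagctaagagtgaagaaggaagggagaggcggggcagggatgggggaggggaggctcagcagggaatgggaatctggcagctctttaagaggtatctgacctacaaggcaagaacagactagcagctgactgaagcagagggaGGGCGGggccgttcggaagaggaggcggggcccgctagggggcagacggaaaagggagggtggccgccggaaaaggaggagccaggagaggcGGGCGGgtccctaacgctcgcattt

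RefSeq windows were found for 8 of the 10 genes, 9 windows in all since Ctsa has 2. The E-box was present in 3 of the 9 windows, those of Ctsa, Ctsd and Ctsl, against 7.15% of the 32851 windows of this length in the table. The second Ctsa window, the one printed, holds it at -12 and 5 from its start site, while Ctsd holds it at -245 and -98. The first Ctsa window, chr2:164832622-164832921, spans the GENCODE gene start at 164832873 and holds none of the 4 motifs. The PU.1 core occurred in 4 of 9 windows (Ctss, Ctsk, Ctsc and Cst3) against 28.3% of all windows, and the GC box in 5 of 9 against 35.7%. A TATA box sequence was found in the Ctss window alone, at -233, against 13.6% of all windows. The Ctss and Ctsk windows had 44.0% and 43.7% G and C, below the median of 52.7% for all windows, and that of Ctsd had 67.3%. A match to so few letters is a description of the sequence and no evidence of binding.

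Cathepsin RNA was abundant in these macrophages. Together the 10 genes held 1.77% and 2.39% of listed-gene UMIs with PBS and between 1.75% and 2.24% with Sema3G. By mean CPM over the 5 libraries, Ctss ranked 8 and Ctsd ranked 12 among all rows of the table, ahead of Ctsb at rank 18 and Ctsl at rank 31. The order continued with Cst3, Ctsc, Ctsz, Ctsa and Ctsh, and Ctsk came last. The plot of levels by library shows 3 tiers. Ctss, Ctsd, Ctsb and Ctsl lay between 1468 and 5273 CPM in every library, Cst3, Ctsc, Ctsz, Ctsa and Ctsh lay between 252 and 899 CPM, and Ctsk lay between 2.30 and 4.82 CPM. Only 2 neighbours in the order had ranges that stood apart, Ctsl above Cst3 and Ctsh above Ctsk. The ranges of all other neighbours overlapped, although Ctsd was above Ctsb, and Ctsb above Ctsl, in all 5 libraries. Ctss was above Ctsd in the 3 Sema3G libraries and below it in both PBS libraries.

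**Figure D1:**
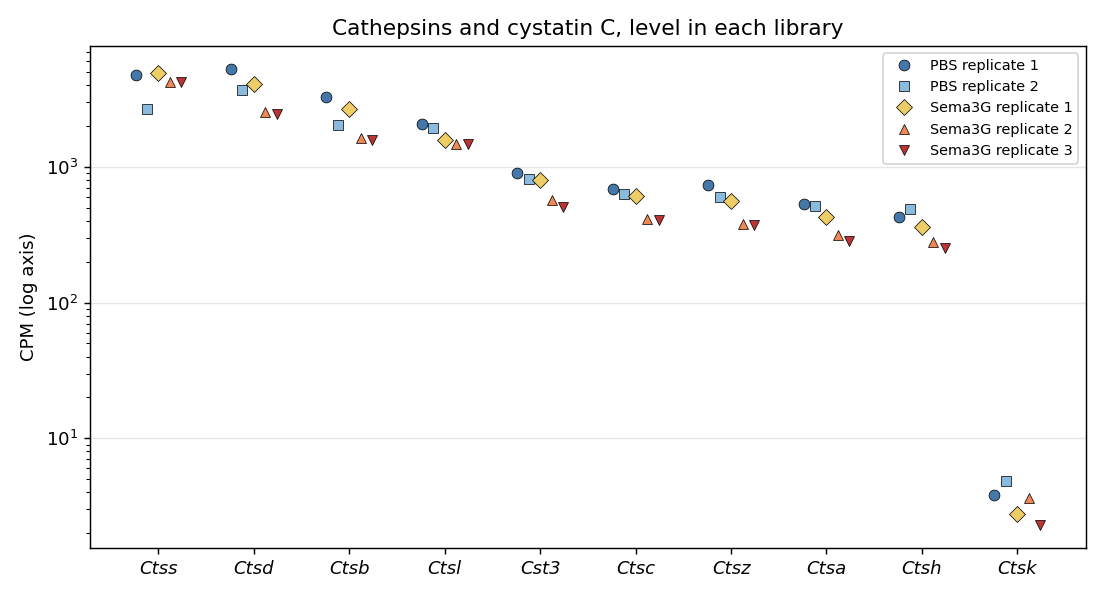
Level of each gene in CPM on a log axis, 1 point per library (2 PBS, 3 Sema3G), ordered by the mean of the 5 libraries. Ctsk, at 2.30 to 4.82 CPM, is far below the other 9 genes, which lie between 252 and 5273 CPM.

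The comparison of Sema3G with PBS asked which genes respond to Sema3G in activated macrophages. A gene was called when its adjusted p from limma, fitted to log2(CPM + 1), was below 0.05. None of the 10 genes was called, while 1.59% of the 10088 genes tested were called higher and 0.218% lower. At an unadjusted p below 0.05 from limma, 5 of the 10 were lower (Ctsh, Ctsa, Ctsz, Ctsc and Cst3) and none was higher, against 14.2% and 6.83% of all genes. This count depended on scaling. After scaling by edgeR's TMM factors 3 were lower (Ctsh, Ctsa and Ctsz) and 1 higher (Ctss), against 5.09% and 11.3% of all genes. With CPM rescaled to listed genes without Rn45s none was lower and 1 was higher (Ctss), against 2.27% and 13.6%. On the recovered counts edgeR's quasi-likelihood test and DESeq2 called none of the 10 at an adjusted p below 0.05, against 3.01% and 2.48% of all genes. DESeq2 gave no adjusted p for 3716 of the 10088 genes, Ctsk among them, so that only 9 of the 10 could be called by it. At an unadjusted p below 0.05 each of these tests gave 3 lower (Ctsh, Ctsa and Ctsz) and 1 higher (Ctss), against 5.16% and 11% of all genes for edgeR and 1.76% and 7.67% for DESeq2. The estimates were below 0 for 9 of the 10 genes, and for 6805 of the 10088 genes tested. The exception was Ctss, whose estimate changed sign when PBS replicate 2 was left out. The log2 fold change lay between -0.64 and -0.40 for 9 genes and at 0.32 for Ctss, with a median of -0.49 over the 10, beside -0.22 over all genes tested.

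In 7 of the 10 genes every Sema3G library was lower than either control on the deposited CPM, a pattern that 26.5% of all genes tested showed. The share of such genes was larger among abundant ones, at 44.6% of the 1052 genes averaging 100 CPM or more, against 6 of the 9 genes at that level here. Of those 6, all had their highest Sema3G value in replicate 1, nearest to PBS. So did 1649 of the 2677 genes that were lower without overlap among all genes tested. The 1649 are 16.3% of all genes tested, and the count among abundant genes was not made. The opposite pattern, every Sema3G library above both controls, was seen in none of the 10, against 11.9% of all genes and 12.5% of the abundant ones. After TMM scaling 6 of the 10 were lower in every Sema3G library, all but Ctsk of the 7, against 15.9% of all genes and 28.9% of the abundant ones. With CPM rescaled to listed genes without Rn45s 3 were (Ctsl, Ctsa and Ctsh), against 10.5% and 16.8%. Under both of these scalings Ctss was higher in every Sema3G library than in either control, as were 17.4% and 21.3% of all genes. The direction of the estimates held under scaling, but their size did not. After TMM scaling the 9 negative log2 fold changes lay between -0.43 and -0.19, and that of Ctss was 0.52, with a median over all genes of -0.038. With CPM rescaled to listed genes without Rn45s they lay between -0.35 and -0.11 and Ctss at 0.61, with a median over all genes of 0.042. Neither scaling led to a call among the 10, against 3.22% and 4.94% of all genes. Under each of the 3 scalings the median of the 10 genes was between -0.27 and -0.26 from that of all genes tested. No median was computed for the genes averaging 100 CPM or more, of which a larger share was lower without overlap. A difference shared by abundant genes is therefore not separated from one of these 10.

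**Figure D2:**
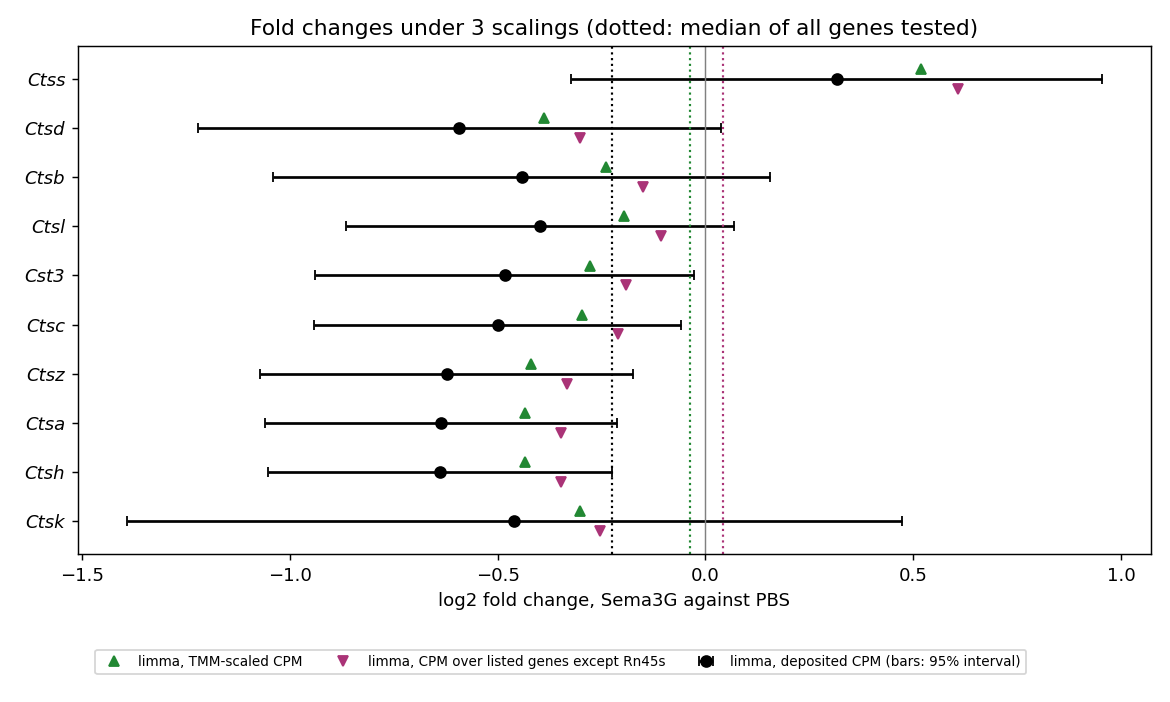
log2 fold change of Sema3G against PBS for each gene. Black points with bars are limma estimates on the deposited CPM with 95% intervals, triangles are the estimates under the other scalings, and dotted lines are the medians of all genes tested. The point estimates of 9 genes are below 0 under all 3 scalings, and that of Ctss is above 0.

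Among the endopeptidases, which cut inside protein chains, Ctss stood apart. Cathepsin S stays active at neutral pH and makes the last cuts of the invariant chain on MHC class II. Its level was 4738 and 2681 CPM with PBS and 4943, 4198 and 4210 CPM with Sema3G. A PBS library was high and the other low, with the Sema3G libraries near the high one, so the groups overlapped. Under the other scalings they did not overlap. The values with CPM rescaled to listed genes without Rn45s were 6186 and 3705 with PBS and 7601, 7030 and 7257 with Sema3G. On the deposited CPM the means were 3710 ± 1454 CPM (SD, n = 2) and 4450 ± 427 CPM (SD, n = 3), a log2 fold change of 0.32 (95% interval -0.32 to 0.95, limma adjusted p = 0.556). It was -0.095 (limma adjusted p = 0.884) when PBS replicate 2 was left out and 0.73 (limma adjusted p = 0.271) when PBS replicate 1 was, so the sign depends on which control is kept. The ratio of PBS replicate 1 to replicate 2 was 1.77, with a 95% exact binomial interval of 1.71 to 1.83, so they differed by more than counting error.

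Ctsb, a cathepsin that both cuts inside chains and trims dipeptides from their ends, was at 3240 and 2026 CPM with PBS and at 2647, 1616 and 1568 CPM with Sema3G. The groups overlapped, because Sema3G replicate 1 lay between the PBS libraries. Its log2 fold change was -0.44 (95% interval -1.04 to 0.16, limma adjusted p = 0.376), and it was -0.10 without PBS replicate 1 and -0.78 without PBS replicate 2. Ctsl, a broadly acting lysosomal endopeptidase, varied least of the 10 among the Sema3G libraries, relative to its mean. It had 2051 and 1914 CPM with PBS and 1564, 1468 and 1477 CPM with Sema3G, with every Sema3G library below both controls. The means of 1982 ± 97.0 and 1503 ± 53.0 CPM (SD, n = 2 and 3) gave a log2 fold change of -0.40 (95% interval -0.87 to 0.07, limma adjusted p = 0.308). It was -0.11 with CPM rescaled to listed genes without Rn45s.

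Ctsk, the collagen-cutting cathepsin of osteoclasts, was barely detected. It had 7 and 9 UMIs with PBS and 5, 8 and 5 UMIs with Sema3G. These counts are above the limit of 3, but they cannot resolve the groups, since the ratio of the pooled groups was 0.671 with a 95% exact binomial interval of 0.323 to 1.41. The log2 fold change was -0.46 (95% interval -1.39 to 0.47, limma adjusted p = 0.558). Of 9 osteoclast markers, 7 had UMIs and Ocstamp and Calcr were at 0, and the sum was 158 and 198 CPM with PBS and between 110 and 132 CPM with Sema3G, most of it from Mmp9, Acp5, Nfatc1 and Atp6v0d2. The Ctsk and Ctss models do not overlap.

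The 3 exopeptidases, which trim chain ends, were lower in every Sema3G library than in either control on the deposited CPM, as were 44.6% of all genes averaging 100 CPM or more. This held for Ctsh alone with CPM rescaled to listed genes without Rn45s, as Sema3G replicate 1 then lay above a control for Ctsz and above both for Ctsc. Ctsc encodes dipeptidyl peptidase I, which activates the serine proteases of immune granules. It was at 690 and 629 CPM with PBS and at 606, 409 and 408 CPM with Sema3G. Ctsh, an aminopeptidase, was at 426 and 489 CPM with PBS and at 358, 280 and 252 CPM with Sema3G. Ctsz, also called cathepsin X, is a carboxypeptidase and was at 728 and 602 CPM with PBS and at 561, 379 and 373 CPM with Sema3G. In each of the 3 genes Sema3G replicate 1 was the highest of its group, and replicates 2 and 3 lay close together. The log2 fold change was -0.50 for Ctsc (95% interval -0.94 to -0.06, limma adjusted p = 0.190), -0.64 for Ctsh (95% interval -1.05 to -0.22, limma adjusted p = 0.1001) and -0.62 for Ctsz (95% interval -1.07 to -0.17, limma adjusted p = 0.127). These intervals are on the deposited CPM and not adjusted for the number of genes. None of the 3 had an unadjusted p below 0.05 with CPM rescaled to listed genes without Rn45s.

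Of the members with other catalytic chemistry, Ctsd encodes the main aspartic protease of the lysosome. It was at 5273 and 3700 CPM with PBS and at 4044, 2550 and 2441 CPM with Sema3G, and its groups overlapped through Sema3G replicate 1. The means were 4487 ± 1112 and 3012 ± 896 CPM (SD, n = 2 and 3), a log2 fold change of -0.59 (95% interval -1.22 to 0.04, limma adjusted p = 0.266). It was -0.34 without PBS replicate 1, -0.85 without PBS replicate 2 and -0.82 without Sema3G replicate 1. Ctsa encodes protective protein, a carboxypeptidase that also stabilizes β-galactosidase and neuraminidase 1. It was at 535 and 513 CPM with PBS, the closest pair of controls among the abundant genes, and at 425, 317 and 284 CPM with Sema3G. All Sema3G libraries lay below the controls, with a log2 fold change of -0.64 (95% interval -1.06 to -0.21, limma adjusted p = 0.107).

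Cst3 had 899 and 810 CPM with PBS and 796, 565 and 507 CPM with Sema3G. The Sema3G libraries were below both controls, but replicate 1 only just, and with CPM rescaled to listed genes without Rn45s replicate 1 was above both. The means were 855 ± 62.9 and 623 ± 153 CPM (SD, n = 2 and 3), a log2 fold change of -0.48 (95% interval -0.94 to -0.03, limma adjusted p = 0.215).

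**Figure D3:**
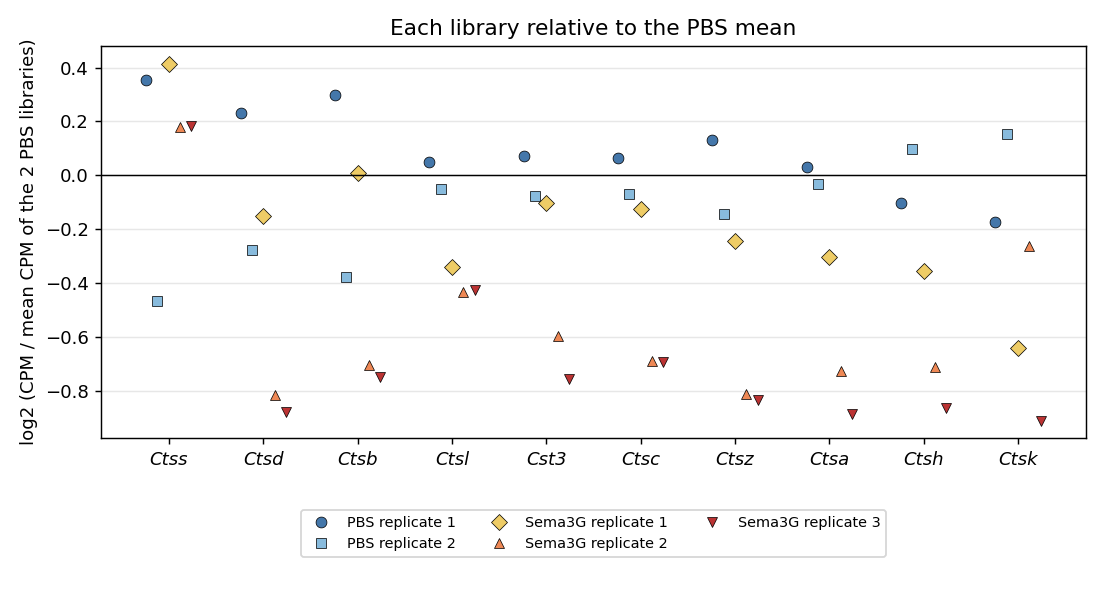
CPM of each library divided by the mean of the 2 PBS libraries, on a log2 scale, 1 point per library. Sema3G replicate 1 lies closer to the controls than replicates 2 and 3 for 8 of the abundant genes, and PBS replicate 2 is the lowest library for Ctss.

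The libraries of a group were not alike. Sema3G replicate 1 had the highest of the 3 Sema3G values for 9 of the 10 genes, all but Ctsk. Between Sema3G replicates 1 and 2 the ratio of CPM was 1.59 for Ctsd and 1.64 for Ctsb, while the Sema3G mean was 0.671 and 0.738 of the PBS mean for these genes. Between Sema3G replicates 2 and 3 the 95% exact binomial interval of the ratio held 1 for 7 of the 10 genes. Such intervals cover counting error only. Over the 7918 genes with at least 20 UMIs in the pair, the chi-square per degree of freedom was 1.77, and it was between 6.57 and 29.6 for the other 9 pairs, so these 2 libraries differed by more than sampling noise and were counted separately, though nothing here shows that they came from different cultures. Without Sema3G replicate 1, limma called 5 genes lower, Ctsa, Ctsh, Ctsz, Ctsc and Cst3, with log2 fold changes between -0.81 and -0.67 and adjusted p between 0.0197 and 0.0370. In that fit 4.36% of all genes were called lower and 2.68% higher. It keeps Sema3G replicates 2 and 3, the pair of libraries most alike. Without Sema3G replicate 2 or without replicate 3 none of the 10 was called, with a lowest limma adjusted p of 0.386 and 0.420. In those fits 27 and 32 of the 10088 genes tested were called. With TMM-scaled CPM and without Sema3G replicate 1, a fit added after the values were seen, 1 gene was called (Ctsz, log2 fold change -0.55, limma adjusted p = 0.0479), where 4.92% of all genes were called higher and 0.704% lower. With CPM rescaled to listed genes without Rn45s, and with edgeR, none was called, against 6.53% and 5.97% of all genes. A fit with the replicate number as a block called 3 lower (Ctsh, Ctsa and Ctsz), where 2.95% of all genes were called higher and 2.73% lower. The labels tie these numbers to no mouse or day.

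Ratios between genes of the same library do not depend on how libraries are scaled. Ctss made up 25.5% and 20.1% of the UMIs on the 10 genes with PBS, and 31.0%, 35.6% and 36.5% with Sema3G. The Sema3G libraries were all above the controls, by 11.6 percentage points between the group means of 22.8% ± 3.84 (SD, n = 2) and 34.4% ± 2.97 (SD, n = 3). The 95% exact binomial intervals reached 26.0% in PBS replicate 1, the higher control, and went down to 30.5% in Sema3G replicate 1, the lowest of its group. These intervals cover counting error only and not the spread between libraries. Those of the 2 PBS libraries did not overlap each other either, so they cannot show that the groups differ. The share of Ctsd was lower in the Sema3G libraries, at 28.4% and 27.7% with PBS and 25.4%, 21.6% and 21.2% with Sema3G. In UMIs, there were 0.899 and 0.725 of Ctss per UMI of Ctsd with PBS and 1.22, 1.65 and 1.72 with Sema3G. The shares of Ctsb, Ctsl, Cst3, Ctsc, Ctsh and Ctsk overlapped between the groups, while those of Ctsz and Ctsa were lower with Sema3G in every library. The shares add to the whole, so a larger share of Ctss lowers the others. The shares were chosen for description after the values were seen. They were not tested, and they were not compared with shares of other genes.

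**Figure D4:**
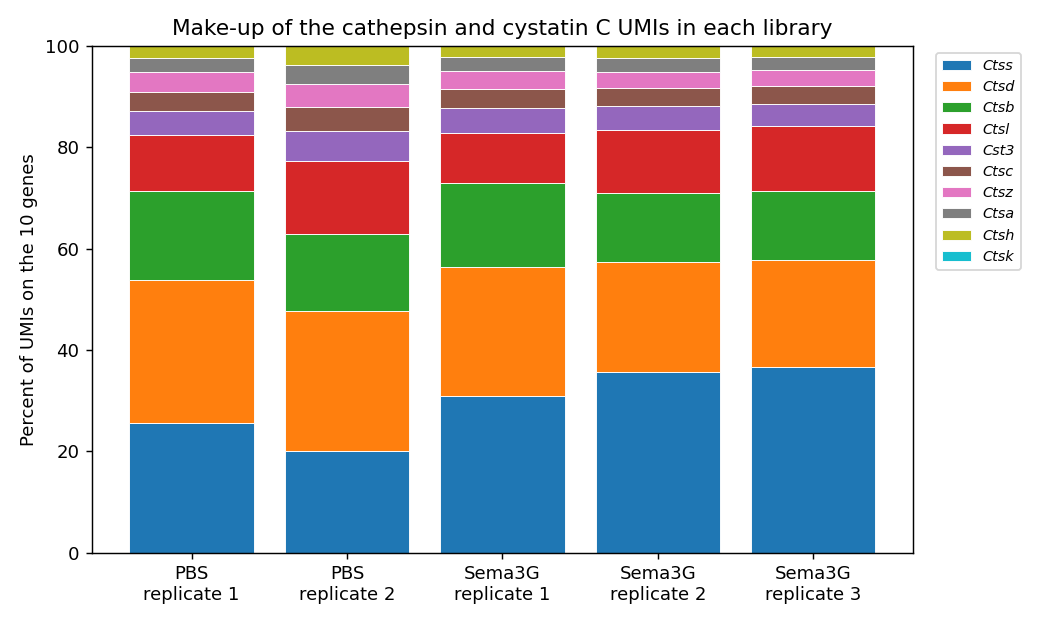
Share of the UMIs on the 10 genes taken by each gene, as percent, with 1 bar per library. The Ctss share is 20.1% and 25.5% in the PBS libraries and 31.0% to 36.5% in the Sema3G libraries, and Ctsk is too rare to be seen.

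Set against the enzymes that it can inhibit, Cst3 had 7.57 and 9.71 UMIs per 100 UMIs on the 7 cysteine cathepsins with PBS, and 7.46, 6.76 and 6.11 with Sema3G. The groups did not overlap, but the highest Sema3G value and the lowest PBS value were close. The means were 8.64 ± 1.51 (SD, n = 2) and 6.78 ± 0.672 (SD, n = 3). The two-sided exact permutation p, taken as the smaller one-sided p times 2, was 0.2. That is the lowest this test can give with 2 against 3 libraries. With Ctss left out of the enzymes the ratio was 13.5 ± 1.21 and 13.3 ± 0.775, and its groups overlapped (p = 0.8 from the exact permutation test). Against Ctss alone, Cst3 had 19.0 and 30.2 UMIs per 100 with PBS and 16.1, 13.5 and 12.03 with Sema3G. Against Ctsb it had 27.8 and 40.0 with PBS and 30.1, 34.97 and 32.3 with Sema3G, and against Ctsl 43.9 and 42.3 with PBS and 50.9, 38.5 and 34.3 with Sema3G, so both ratios overlapped. Of the ratios computed, those that include Ctss were lower in every Sema3G library, and those without it were not.

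As a share of all UMIs on listed genes, the 10 genes together held 2.08% ± 0.442 with PBS (SD, n = 2) and 1.91% ± 0.279 with Sema3G (SD, n = 3). The groups overlapped (two-sided exact permutation p = 0.4). With Rn45s left out of the listed genes the shares were both 2.14%. In summed CPM the 3 exopeptidases were at 1844 and 1720 with PBS and at 1524, 1068 and 1032 with Sema3G, without overlap. The 4 endopeptidases were at 10033 and 6626 with PBS and at 9156, 7285 and 7257 with Sema3G, with overlap. Ctsa and Ctsd together were at 5808 and 4213 CPM with PBS and at 4469, 2867 and 2725 CPM with Sema3G, again with overlap.

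Lists of related genes give the setting. Of 13 other mouse cathepsin genes, 10 had no UMI in any library, Ctse and Ctsg among them, and Ctsw had 1 UMI in all. The remaining pair, Ctsf and Ctso, were tested and neither was called, where 1.59% of all genes were called higher and 0.218% lower. Ctso, a little-studied cysteine cathepsin, had 13 to 30 UMIs per library (log2 fold change -0.19, limma adjusted p = 0.817). Ctsf had 19 and 9 UMIs with PBS and 12, 0 and 6 UMIs with Sema3G (log2 fold change -1.41, limma adjusted p = 0.219). Of 25 other cystatin and stefin symbols, 20 were in the table and 16 of those had no UMI. Cstb, which encodes the cytosolic inhibitor stefin B, was the abundant one, with 1242 and 835 UMIs with PBS and 869, 839 and 830 UMIs with Sema3G (log2 fold change -0.42, limma adjusted p = 0.263). In CPM its groups overlapped, and with a mean of 475 CPM it was second to Cst3 among the cystatins measured.

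Among 8 genes that carry cathepsins to the lysosome none was called, where 1.59% of all genes were called higher and 0.218% lower. All 8 had a log2 fold change below 0 on the deposited CPM, 5 were lower without overlap between groups, against 26.5% of all genes tested, and the median was -0.50, beside -0.22 over all genes. Nagpa, which uncovers the mannose 6-phosphate tag, had a log2 fold change of -0.80 (limma adjusted p = 0.0884), and M6pr, a receptor for the tag, one of -0.50 (limma adjusted p = 0.160). Lrp1, an endocytic receptor that can recapture secreted cathepsins, had one of -0.54 (limma adjusted p = 0.115), and Scarb2, a lysosomal membrane receptor, one of -0.50 (limma adjusted p = 0.196). For Sort1, the sorting receptor sortilin, the estimate was -0.31 (limma adjusted p = 0.395).

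Of 10 genes of cathepsin activation and partners, none was called, all 10 had a log2 fold change below 0 on the deposited CPM and 5 were lower without overlap, with a median of -0.49. Over all genes tested 1.59% were called higher and 0.218% lower. Of all genes tested 26.5% were lower without overlap, and of those averaging 100 CPM or more 44.6%. With CPM rescaled to listed genes without Rn45s 3 of these 10 and 2 of the 8 genes of delivery were, against 10.5% of all genes. Lgmn, the protease that processes several cathepsins, was at -0.62 (limma adjusted p = 0.187), and Neu1, a partner of cathepsin A, was at -0.57 (limma adjusted p = 0.122). Cd74, the invariant chain cut by cathepsin S, was at -0.88 (limma adjusted p = 0.0820), with 291 and 235 UMIs with PBS and 177, 109 and 201 UMIs with Sema3G, so its estimate had the opposite sign to that of Ctss. Ifi30, a lysosomal thiol reductase of antigen processing, was at -0.41 (limma adjusted p = 0.299). Lamp1 and Lamp2, proteins of the lysosomal membrane, were at -0.61 (limma adjusted p = 0.168) and -0.29 (limma adjusted p = 0.362). Psap, the precursor of the saposins, was at -0.01 (limma adjusted p = 0.992) and Tpp1, a lysosomal tripeptidyl peptidase, at -0.02 (limma adjusted p = 0.969). For Psap the PBS libraries were far apart, at 3376 and 1346 UMIs, as they were for Ctss.

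Of the 4 MiT/TFE transcription factors of lysosomal genes, none was called, where 1.59% of all genes were called higher and 0.218% lower. All 4 had a log2 fold change below 0 on the deposited CPM, with a median of -0.51. Tfe3 had 220 and 238 UMIs with PBS and 178, 153 and 130 UMIs with Sema3G, without overlap in CPM (log2 fold change -0.73, limma adjusted p = 0.0884). Mitf was at -0.07 (limma adjusted p = 0.871). In all, 25 of the 26 tested genes of these 5 lists had a log2 fold change below 0 on the deposited CPM, where 6805 of the 10088 genes tested did. The direction depended on scaling for some of them. After TMM scaling 21 of the 26 were below 0, beside 5397 of all genes, and with CPM rescaled to listed genes without Rn45s 18 were, beside 4645. In these scalings 8 and 6 of the 10 genes of activation and partners, 7 and 7 of the 8 of delivery and 3 and 3 of the 4 MiT/TFE factors were below 0. None of the 26 was called in either, against 3.22% and 4.94% of all genes.

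**Figure D5:**
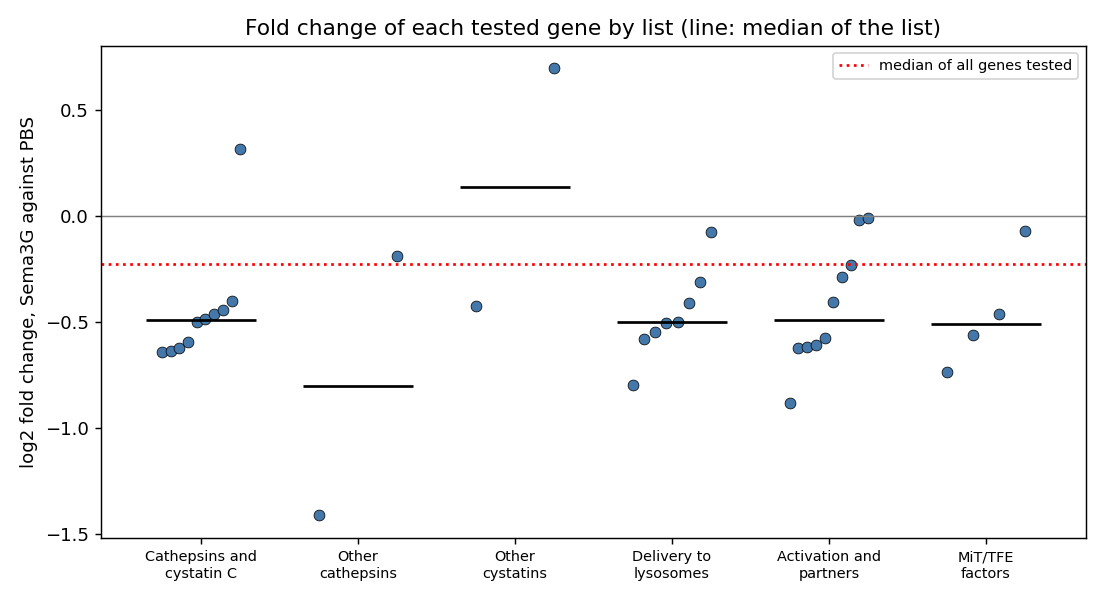
log2 fold change on the deposited CPM of each tested gene, by list, with the median of the list as a black line and the median of all genes tested as a dotted line. The lists of delivery, activation and partner genes and MiT/TFE factors have medians between -0.51 and -0.49, close to the -0.49 of the cathepsins and cystatin C, and the lists of other cathepsins and other cystatins hold 2 tested genes each.

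Some of the genes share their ground with others in GENCODE M21. Ctsb overlaps Fdft1, Ctsz overlaps Nelfcd and Ctsa overlaps Pltp and Neurl2, all on the other strand, as do Ctsl with Gm47123 and Ctsc with Gm26522. No source used here says whether the authors' counting used strand, so UMIs of these genes could in part come from their neighbours. On the same strand Ctsd overlaps the model Gm49369, Ctsl overlaps Gm49230 and Ctss holds Hmgb1-ps5, and none of these has a row in the table. Cst3, Ctsh and Ctsk overlap no other gene model.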

How the data were processed

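RNA-seq of 5 samples was used, 2 with PBS and 3 with Sema3G, grouped by the treatment label. The authors prepared QuantSeq 3′ libraries with UMIs, mapped single-end reads to mm10, counted UMIs with Strand NGS and normalized with edgeR (3.12 in the submitters' processing notes). For the annotation, any filter and the Strand NGS version, nothing is given in the sources used here. The deposited values are CPM. The authors' p-value, q-value and ranking columns were not used. UMI counts were recovered from the step of each library.

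The planned test was a trended limma fit (version 3.58.1 in R 4.3.3) to log2(CPM + 1). It covered the 10088 genes averaging 1 CPM or more, and p-values were adjusted over all of them by Benjamini-Hochberg. Fold changes on this scale understate those of low genes. Recovered counts were also tested with DESeq2 (1.42.0) and edgeR (4.0.16). The limma, edgeR and DESeq2 fits with all 5 libraries were run on simulated data in which the changed genes differed far more than these 10 do. That check does not bear on changes of the size seen here. All 10 genes passed the filter. Alternatives changed the pseudocount, filter, scaling, test and block and left out each library. Fits that joined a scaling or edgeR with the loss of Sema3G replicate 1 were added after seeing the data. Named are the 10 genes and, of the other lists, genes averaging 50 CPM or more or called by limma, with markers named where at 0 or highest in their list. Ctsf, Ctso, Ctsw, Ctse, Ctsg, Lyz2, Mertk and the osteoclast markers after Mmp9 are further examples chosen after their values were seen. The members and lists were chosen with earlier results of these data known.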

Additional observations from a re-analysis of the deposited data

How the results depend on the processing

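With 1 library left out, the number of the 10 genes called by limma ranged from 0 to 5 and the number of all genes called from 27 to 710, beside 0 and 182 with all libraries. Without PBS replicate 1 it was 99 of all genes, without Sema3G replicate 2 it was 27, without Sema3G replicate 3 it was 32, and without Sema3G replicate 1 it was 710. The count of all genes was 108 with no filter, 325 with TMM-scaled CPM, 498 with CPM rescaled to listed genes without Rn45s and 304 with edgeR. With TMM-scaled CPM 322 of the calls were higher and 3 lower, and with the deposited CPM 160 and 22. Without Sema3G replicate 1 it was 567 with TMM-scaled CPM, 659 with CPM rescaled to listed genes without Rn45s and 602 with edgeR, and of the 10 genes 1, 0 and 0 were called. The cause was not tested.

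PBS and Sema3G share the replicate numbers 1 and 2, which the labels tie to no mouse or day. Deviations of same-numbered libraries correlated at 0.17 and 0.11 across genes. The fit with the replicate number as a block called 573 genes and 3 of the 10 (Ctsh, Ctsa and Ctsz). It gives Sema3G replicate 3 a block of its own, so that library does not enter the fold change. The fold changes of these genes equal those of the fit without Sema3G replicate 3. There the limma adjusted p of Ctsh, Ctsa and Ctsz lay between 0.420 and 0.446, so the calls rest on the assumed pairing.

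The log2 fold change of Ctss was reversed without PBS replicate 2, with a range of -0.095 to 0.73 when 1 library was left out, and the other 9 genes kept their sign under every alternative in which they were tested. The share of listed UMIs on the 10 genes differed by -0.169 percentage points between the groups, by 0.00042 with Rn45s left out, and by -0.482 to 0.144 with 1 library left out. The number of the 10 genes lower in every Sema3G library than in either control was 7 on the deposited CPM and 3 with CPM rescaled to listed genes without Rn45s, and the number higher in every one was 0 and, under each other scaling, 1 (counts under other scalings were added after seeing the data). The ratio of Cst3 to cysteine cathepsins differed by -1.86 per 100 UMIs, and by -2.93 to -0.80 with 1 library left out. Where PBS is left with 1 library, it is assumed to vary like the others. Depth limits what can be said of Ctsk, at 5 to 9 UMIs a library.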
